A study of Mus musculus with 3 samples.

Results

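Potassium channel genes were taken as the mm10 protein-coding genes whose symbols start with Kcn, and the Atoh7 peaks centred inside them or within 50 kb of either end were collected. There were 94 such genes among 21631 protein-coding genes on chromosomes 1 to 19 and X, and 27 of the 3668 peaks in the list met the rule. Atoh7, a bHLH (basic helix-loop-helix) transcription factor, is made by retinal progenitors about to form neurons, and most retinal ganglion cells depend on it. The study mapped its genomic sites by CUT&RUN, which uses an antibody-tethered nuclease to free DNA beside the protein. The labels describe C57Bl6/J mouse retina at embryonic day 14, with 2 libraries for Atoh7 and 1 for IgG, the antibody control, and give no other genotype or treatment. The values analysed were a single deposited list of peak positions and widths with no value per library, and every peak name in it points to Atoh7 replicate 1. Spread between libraries, the IgG level at these sites and read depth are therefore not analysed here. Intervals below cover the counting of peaks or genes only, and no test between groups was made.

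Potassium channels let potassium leave or enter cells, set the resting potential and end action potentials. Pore-forming subunits fall into voltage-gated channels (Kcna, Kcnb, Kcnc, Kcnd, Kcnh and Kcnq, with the modifiers Kcnf, Kcng, Kcns and Kcnv), inward rectifiers (Kcnj), tandem pore leak channels (Kcnk) and channels opened by calcium or sodium (Kcnma, Kcnn, Kcnt and, opened by voltage and pH, Kcnu). Auxiliary subunits (Kcnab, Kcne, Kcnip, Kcnmb and Kcnrg) alter the traffic or gating of the pores. In the mature retina Kcnv2 serves photoreceptors, Kcnj10 serves Muller glia and several Kcnq genes carry the slow M-current of neurons. The deposited data hold binding positions, not transcript levels or currents.

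The share of potassium channel genes with an Atoh7 peak was near that of all genes, and most of the peaks near them lay closer to a different gene. A peak lay inside or within 50 kb of 18 of the 94 genes (19.1%, 95% Wilson interval 12.5 to 28.3%). Over all protein-coding genes the share was 24.4%, which lies within that interval. The most peaks were at Kcnd3 and Kcnh2, with 4 each, and 4 genes had 2 each, among them Kcnab2, Kcnk4 and Kcnq1. The other 12 genes had 1 peak each. Thus 6 members (6.38%) had 2 or more peaks, against 6.78% of all protein-coding genes. Of the 27 peaks, 11 had a potassium channel gene as the nearest protein-coding gene, 12 were centred inside another gene and 4 lay outside but nearer to another gene. Counted as gene-peak pairs, a peak once for each gene within 50 kb, 11 of 28 pairs joined a member to a peak nearest to it. Over all protein-coding genes it was 3008 of 7394 pairs, so this was not particular to the members. By nearest gene within 50 kb, 8 of the 94 members held a peak (8.51%), against 10.7% of all protein-coding genes.

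Near these genes, 8 peaks overlapped 9 annotated promoters, a promoter being the 250 bases before to 50 bases after a transcription start. Only 1 of the 9 belonged to a member, Kcnmb1, and another belonged to Kcnq1ot1, the noncoding RNA transcribed antisense to Kcnq1. Both are shown first because they are the places where a peak met a start within a potassium channel gene. The promoters of Esrra (a nuclear receptor gene beside Kcnk4) and Pgm2l1 (a sugar phosphate enzyme gene beside Kcne3) are shown as examples of starts of neighbours. They do not stand for all the neighbours. Sequences are from RefSeq (GRCm38.p6, the assembly that mm10 names), 5′ to 3′ on the gene's strand, with capitals marking each CANNTG hexamer, the E-box that bHLH dimers recognise:
Kcnmb1, chr11:33962763-33963062, plus strand: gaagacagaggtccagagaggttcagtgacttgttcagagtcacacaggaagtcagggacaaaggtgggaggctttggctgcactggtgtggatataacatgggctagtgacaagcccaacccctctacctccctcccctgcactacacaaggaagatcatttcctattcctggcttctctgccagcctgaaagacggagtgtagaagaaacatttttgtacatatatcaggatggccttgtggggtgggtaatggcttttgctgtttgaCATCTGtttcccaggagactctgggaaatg
Kcnq1ot1, chr7:143296498-143296797, minus strand: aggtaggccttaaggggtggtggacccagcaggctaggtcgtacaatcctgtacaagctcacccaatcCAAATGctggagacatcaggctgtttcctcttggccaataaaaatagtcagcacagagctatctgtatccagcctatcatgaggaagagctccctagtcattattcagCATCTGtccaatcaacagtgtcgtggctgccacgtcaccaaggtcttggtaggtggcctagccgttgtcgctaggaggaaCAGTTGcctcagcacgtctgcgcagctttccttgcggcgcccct
Esrra, chr19:6921759-6922058, minus strand: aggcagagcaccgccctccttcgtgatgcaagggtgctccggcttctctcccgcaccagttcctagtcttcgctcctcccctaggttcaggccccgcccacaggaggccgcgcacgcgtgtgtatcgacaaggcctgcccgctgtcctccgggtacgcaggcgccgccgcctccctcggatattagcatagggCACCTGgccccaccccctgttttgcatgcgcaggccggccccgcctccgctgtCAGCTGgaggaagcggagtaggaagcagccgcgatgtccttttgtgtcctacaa
Pgm2l1, chr7:100227357-100227656, plus strand: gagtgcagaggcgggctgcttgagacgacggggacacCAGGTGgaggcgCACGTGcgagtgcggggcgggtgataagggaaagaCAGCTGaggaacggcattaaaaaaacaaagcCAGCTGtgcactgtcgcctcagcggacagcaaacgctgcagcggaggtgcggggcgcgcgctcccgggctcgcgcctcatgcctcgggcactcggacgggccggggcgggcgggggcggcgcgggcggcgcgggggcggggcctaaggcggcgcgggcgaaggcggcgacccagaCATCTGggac

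The Kcnmb1 promoter held 1 such hexamer, CATCTG, starting 20 bases after the start base, and it lay inside the peak. The Kcnq1ot1 promoter held 3, CAAATG and CATCTG starting 182 and 74 bases before the start base, inside the peak, and CAGTTG starting 6 bases after it, outside the peak. CAGCTG, which reads the same on both strands, was in neither promoter but was in those of Esrra and Pgm2l1. Of the other neighbours' promoters, those of Cyth2 and Gm34877 held it, and those of Ddx20, Smg9 and Slc35a2 did not. The promoters of Ddx20 and Smg9 held no CANNTG. Over the 9 promoters, 7 held CANNTG, 4 held CAGCTG and 4 held CAGATG or its reverse complement CATCTG. The 9 include a pair that overlap each other, those of Pgm2l1 and of the noncoding gene Gm34877 on the opposite strand. Among all 32851 promoters of the table, 72.3% held CANNTG, 16.3% CAGCTG and 17.2% CAGATG or CATCTG. Among the 898 promoters that any peak overlapped, the shares were 67.1%, 28% and 15.7%. A match is a description of the letters and does not show a site of binding. Promoter sequences were found for 69 of the 94 members, and 1 of the 69 was overlapped by a peak, against 3.98% of the protein-coding genes with a promoter sequence.

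Counts of peaks rose little with gene length among the members. Across the 94 genes, which are not independent replicates, the Spearman correlation of the number of peaks within 50 kb with gene length was 0.07, and Pearson's r with log10 length was 0.10. For peaks centred inside the gene the values were 0.18 and 0.20. Over all 21631 protein-coding genes they were 0.13 and 0.15 for the windows and 0.25 and 0.25 inside genes. Members with a peak had a median length of 42.1 kb and members without one a median of 32.7 kb. Members differed in neighbours too: those with a peak had a median of 2.5 other protein-coding genes in the window (range 1 to 11), and members without had 1 (range 0 to 8). The part of those neighbours in the counts was not tested.

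The share of members with a peak lay below that of all protein-coding genes in each of 4 length classes, and the intervals covered the background in each. Under 25 kb, 8 of 41 members (19.5%, 95% Wilson interval 10.2 to 34%) had a peak, against 21.4% of all genes of that length. From 25 to 100 kb, 5 of 30 members (16.7%, 7.34 to 33.6%) had a peak, against 25.6%. From 100 to 300 kb it was 1 of 9 (11.1%, 1.99 to 43.5%), against 35.2%, and that gene was Kcnd3. Over 300 kb it was 4 of 14 (28.6%, 11.7 to 54.6%), against 46.3%, the 4 being Kcnq1, Kcnh1, Kcnip1 and Kcnq5. At the background share of each member's own length class, 26.1 members would have had a peak, where 18 did.

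**Figure D1:**
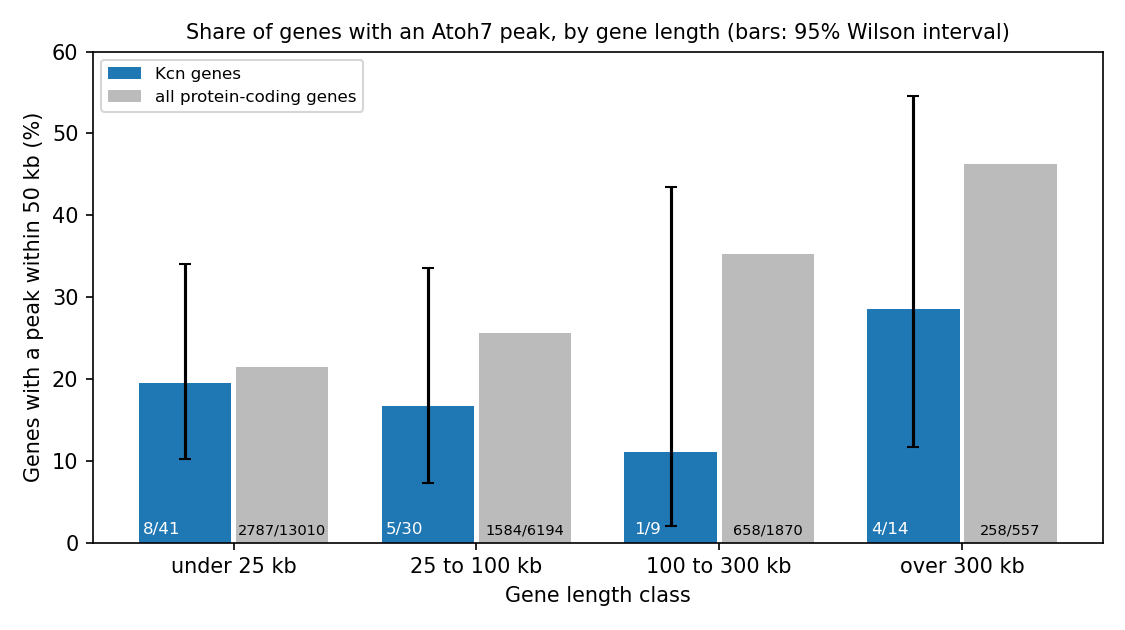
Share of genes with a peak inside or within 50 kb (y axis, percent) in 4 classes of gene length (x axis), for Kcn genes (blue, error bars are 95% Wilson intervals, counts at the foot) and all protein-coding genes (grey). The blue bar is below the grey bar in each class, from 19.5% against 21.4% to 28.6% against 46.3%, and each interval reaches above the top of the grey bar.

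Inside potassium channel genes, peaks per Mb were fewer than inside all protein-coding genes, a background not matched for length. The windows of all members together covered 19.6 Mb and held 1.38 peaks per Mb (95% exact Poisson interval 0.91 to 2.01), against 1.81 per Mb over the windows of all protein-coding genes. That interval includes 1.81. Inside the genes alone, 7 peaks in 10.7 Mb gave 0.656 per Mb (0.264 to 1.35), against 1.91 per Mb inside all protein-coding genes, which is above that interval. The 1.91 covers genes of all lengths. No rate inside genes of matched length was computed, and the part of gene length in the gap was not tested. The share of members with a peak inside was 7.45% (7 of 94), close to the 7.17% of all genes, although the members were longer (median 32.7 against 17.3 kb). Over 300 kb, 3 of 14 members (21.4%) held a peak inside, against 41.7% of all genes of that length. In the class from 100 to 300 kb it was 1 of 9 (11.1%), against 22.4%, and from 25 to 100 kb 1 of 30 (3.33%), against 8.73%. Under 25 kb, 2 of 41 members (4.88%) held a peak inside, against 2.76%.

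**Figure D2:**
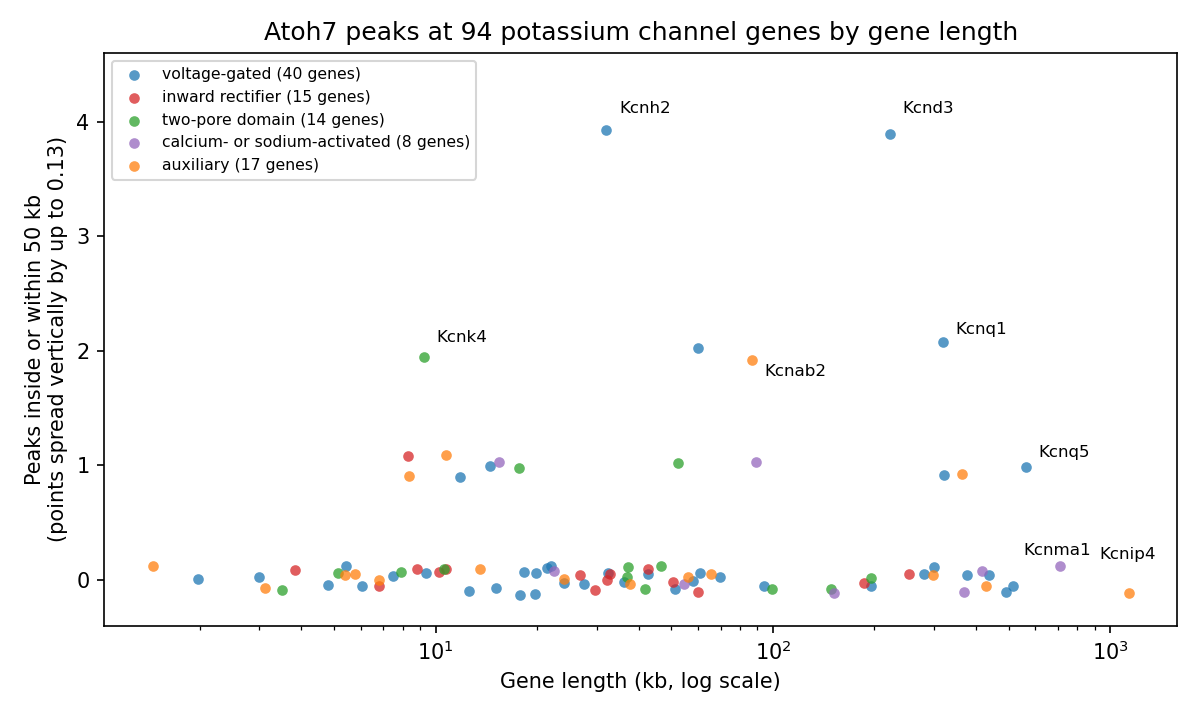
Number of Atoh7 peaks inside or within 50 kb (y axis, points spread by up to 0.13 so that they do not hide each other) against gene length (x axis, kb, log scale) for the 94 Kcn genes, coloured by class. Most points lie at 0 at every length, including Kcnip4 and Kcnma1 at the right, and the genes with 4 peaks, Kcnh2 (32.1 kb) and Kcnd3 (222 kb), are of middle length.

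Voltage-gated channel genes held most of the peaks. Among 40 genes, 8 had a peak, and their windows held 16 different peaks, 1.84 per Mb (95% exact Poisson interval 1.05 to 2.98), close to the 1.81 of all genes. At the background share of their lengths, 11.4 of the 40 would have had a peak. The peaks were unevenly spread over the subfamilies, with 5 each at the Kcnd, Kcnh and Kcnq genes and 1 at the Kcng genes. The subfamilies also differed in number and length of genes. At the background mean of their length classes, gene-peak pairs would number 1.71 for Kcnd, 4.48 for Kcnh, 3.37 for Kcnq and 1.27 for Kcng. The Kcnh and Kcng counts were thus close to that mean.

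The Kcnd genes encode the pores of the fast transient A-type current, and 2 of 3 had a peak (95% Wilson interval 20.8 to 93.9%), against 34.3% at the background share of their lengths. Their windows held 4.76 peaks per Mb (1.54 to 11.1), the interval of 5 peaks being wide. Kcnd3 (chromosome 3, 105451890 to 105674002, plus strand, 222 kb) had 2 peaks in its body, at chr3:105559397-105559728 and chr3:105617116-105617699. They were 332 and 584 bp wide and were centred 108 and 166 kb after its annotated start. The other 2 peaks of its window lay beyond its downstream end, by 13.5 kb and 40.5 kb. The nearer was centred 99 bp after the start of Ddx20, an RNA helicase gene, and the farther was inside Inka2, a kinase inhibitor gene. These 4 peaks carry consecutive numbers in the deposited names, so no number is absent between them. Kcnd1 had 1 peak, 45.8 kb away at the start of Slc35a2, a sugar nucleotide transporter gene. Kcnd2 (514 kb) had none, the nearest peak being 159 kb from it.

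The Kcnh genes encode the EAG, ERG and ELK channels, and 2 of 8 had a peak, where the background share of their lengths gives 2.68. The rate was 2.11 per Mb (0.686 to 4.93), with 0 peaks inside any of them. Kcnh2 (chromosome 5, 24319589 to 24351684, minus strand, 32.1 kb) encodes the ERG channel that repolarises heart muscle. Its closest peak, chr5:24352379-24352960, was 582 bp wide and was centred 986 bp upstream of the gene's outer 5′ boundary, and 23.1 kb upstream of the start listed in the promoter table. A second peak lay 38.9 kb beyond its downstream end, with Kcnh2 still the nearest protein-coding gene. The remaining 2 were centred inside Atg9b, an autophagy gene, and Abcb8, a mitochondrial transporter gene, at 35.7 and 42.8 kb. From first to last these 4 peaks spanned 114 kb, and 2 of the 6 running numbers in that span were absent from the list. Kcnh1 (321 kb), an EAG channel gene, had its only peak 48 kb downstream, inside Hhat, the gene of the acyltransferase of Hedgehog proteins. Kcnh7 (491 kb) had none, with the nearest 62.1 kb away.

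The Kcnq genes had peaks at 3 of 5 members (95% Wilson interval 23.1 to 88.2%), against 38% at the background share of their lengths. The rate was 2.78 per Mb (0.904 to 6.5). Kcnq1 (chromosome 7, 143106877 to 143427050, 320 kb), a channel gene of heart and inner ear in an imprinted domain, had 2 peaks. The peak at chr7:143296582-143296813 was 232 bp wide, lay inside the gene 190 kb from its low-coordinate end, and was centred 150 bp before the start of Kcnq1ot1, whose promoter it overlapped by 216 bp. The peak at chr7:143428325-143428859 was centred 1.54 kb beyond the high-coordinate end. Kcnq5 (564 kb), an M-current gene of neurons, had 1 peak of 197 bp in its body, 501 kb after the nearer of its annotated starts and 62.7 kb from its low-coordinate end. Kcnq3, also an M-current gene, had none, the nearest being 959 kb away.

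Among the 10 modifier genes, whose products open no channel alone, only Kcng4 had a peak (10%, Wilson interval 1.79 to 40.4%). The background share of their lengths gives 2.27 genes (22.7%), within that interval. Kcng4 (chromosome 8, 119623854 to 119635680, minus strand, 11.8 kb) held the peak in its body at chr8:119630778-119631352, 575 bp wide and 4.62 kb after its start. The noncoding gene Gm46055 has a start 1.8 kb from the peak's centre. Kcnv2, the photoreceptor modifier, had no peak within 343 kb. The 8 Kcna genes, several of which serve axons, had none in 0.809 Mb of windows, where 3 peaks, the limit that a count of 0 allows, would be 3.71 per Mb and the exact Poisson interval ends at 4.56. The 4 Kcnc genes, of fast-spiking neurons, had none in 0.679 Mb (limit 4.42 per Mb, exact interval to 5.44). These limits lie above the 1.81 per Mb of all genes, so a lower rate could not be seen. At the background share of their lengths, 1.8 of the 8 Kcna genes and 1.04 of the 4 Kcnc genes would have had a peak. The nearest peaks lay 1055 kb from Kcna1, 479 kb from Kcnc1 and 579 kb from Kcnb2, which is 437 kb long.

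Inward rectifiers had the lowest share of the 5 classes, with intervals that overlap those of the others. Of 15 Kcnj genes, 1 had a peak (6.67%, 95% Wilson interval 1.19 to 29.8%), where the background share of their lengths would give 3.78 genes. The rate was 0.49 peaks per Mb (95% exact Poisson interval 0.0124 to 2.73), and the interval includes 1.81. The gene was Kcnj14, and its peak, 1.98 kb outside it, was centred 174 bp before the start of Cyth2, an exchange factor gene for ARF proteins. Kcnj10, the Muller glia channel gene, had its nearest peak 139 kb away.

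Of 14 tandem pore Kcnk genes, 3 had a peak (21.4%, 7.57 to 47.6%), where the background share of their lengths gives 3.52. They held 4 peaks at 1.91 per Mb (0.521 to 4.9). Kcnk12 (chromosome 17, 87745821 to 87797994, minus strand) was the only member of the class nearest to its peak. That peak, chr17:87745104-87745707, was 604 bp wide and was centred 416 bp beyond the gene's downstream end, 52.6 kb from its start. Kcnk4, which encodes a mechanically gated leak channel and has 11 other protein-coding genes in its window, had a peak over the start of Esrra 3.74 kb away and another inside Ppp1r14b, a phosphatase inhibitor gene, 41.4 kb away. Kcnk18 had 1 peak, 22.4 kb downstream and 1.11 kb upstream of the start of Slc18a2, the vesicular monoamine transporter gene. Kcnk12 and Kcnk18, like Kcnj14, Kcnn4, Kcnu1, Kcnd1 and Kcne3, were named after their values were seen.

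Of 8 genes of calcium- or sodium-activated channels and their sperm relative, 2 had a peak, where the background share of their lengths gives 2.68. The rate was 0.76 per Mb (0.092 to 2.74), with 0 inside a gene. Kcnn4, a channel gene of blood cells and epithelia, had a peak 14.5 kb away, centred 81 bp after the start of Smg9, a gene of mRNA decay. Kcnu1, whose channel is found in sperm, had a peak 7.84 kb away inside Ash2l, a histone methyltransferase subunit gene. Kcnma1 (713 kb), which encodes the large-conductance BK channel, had none, with the nearest 546 kb away.

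Auxiliary subunit genes had a peak at 4 of 17 (23.5%, 9.56 to 47.3%), where the background share of their lengths gives 4.69. The 4 different peaks gave 0.978 per Mb (0.267 to 2.5). The widest peak at any member was here, 681 bp at chr11:33962809-33963489, wider than 93.7% of the list by rank. It covered the start of Kcnmb1 (chromosome 11, 33962955 to 33973641, plus strand), a BK beta subunit gene known from smooth muscle, with its centre 136 bp after the start. Kcnmb1 lies within Kcnip1 (364 kb, minus strand), the gene of a calcium-binding partner of Kcnd channels, so that this peak was counted at both genes. Its centre was 30 kb after the nearest annotated start of Kcnip1. Kcnab2 (chromosome 4, 152390744 to 152477549, minus strand), the gene of a beta subunit of Kcna channels, had a peak of 253 bp in its body, 33.8 kb after the nearest of its 3 annotated starts. Its other peak lay 34.8 kb upstream inside Nphp4, a ciliary gene. Kcne3 had a peak 42.6 kb away over the start of Pgm2l1. Kcnip4, the longest member at 1136 kb, had none, with the nearest 156 kb away.

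**Figure D3:**
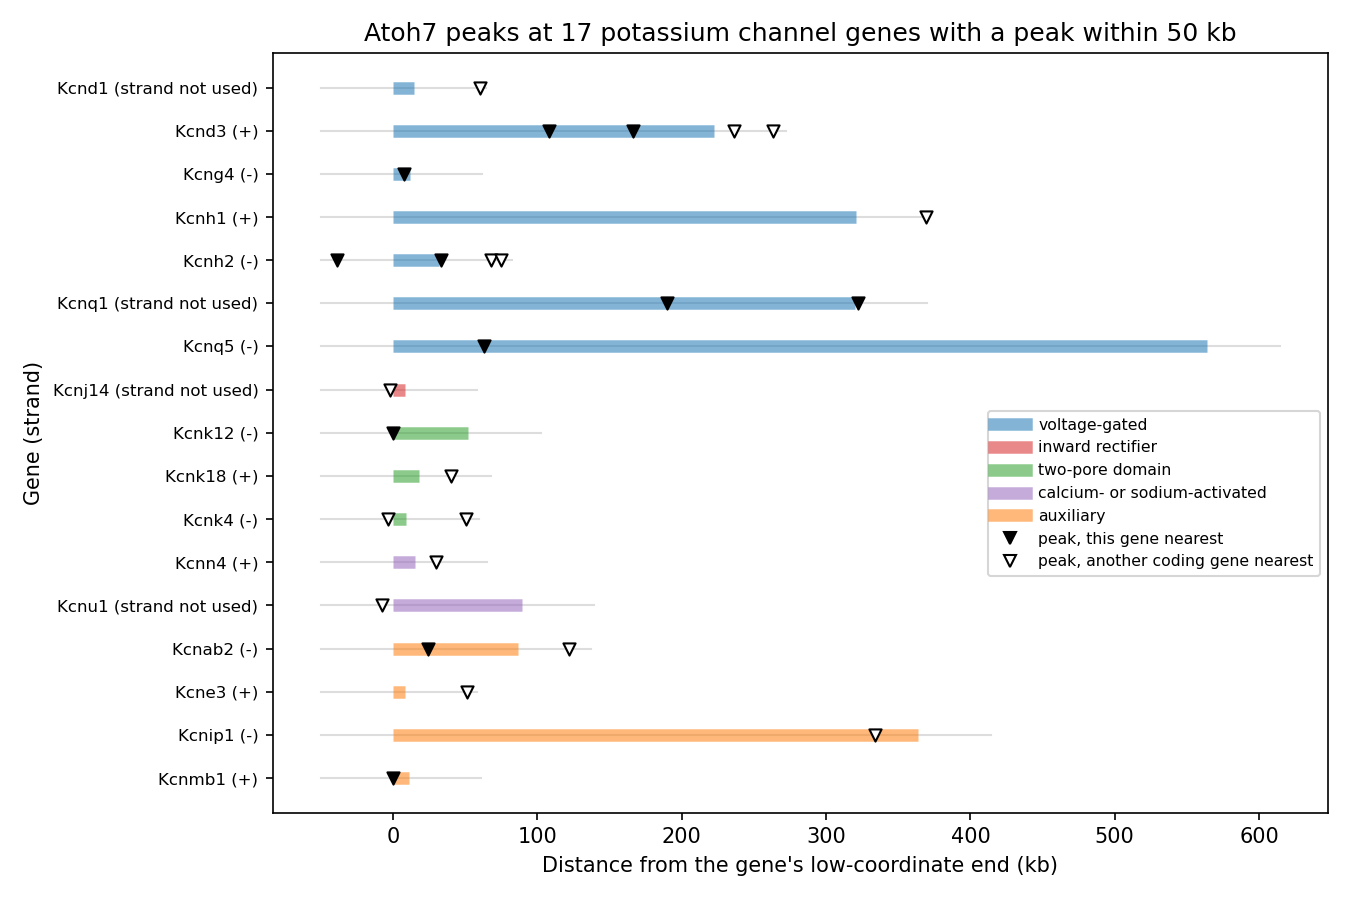
Position of the peaks (triangles) at 17 of the 18 Kcn genes with a peak, as distance from the gene's low-coordinate end (x axis, kb), with 1 gene a line, the gene as a coloured bar and its 50 kb flanks as a grey line. Filled triangles, 11 in all, mark peaks to which that gene is the nearest protein-coding gene, and open triangles mark peaks nearer to another gene, among them the Kcnmb1 peak where it is drawn at Kcnip1.

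**Figure D4:**
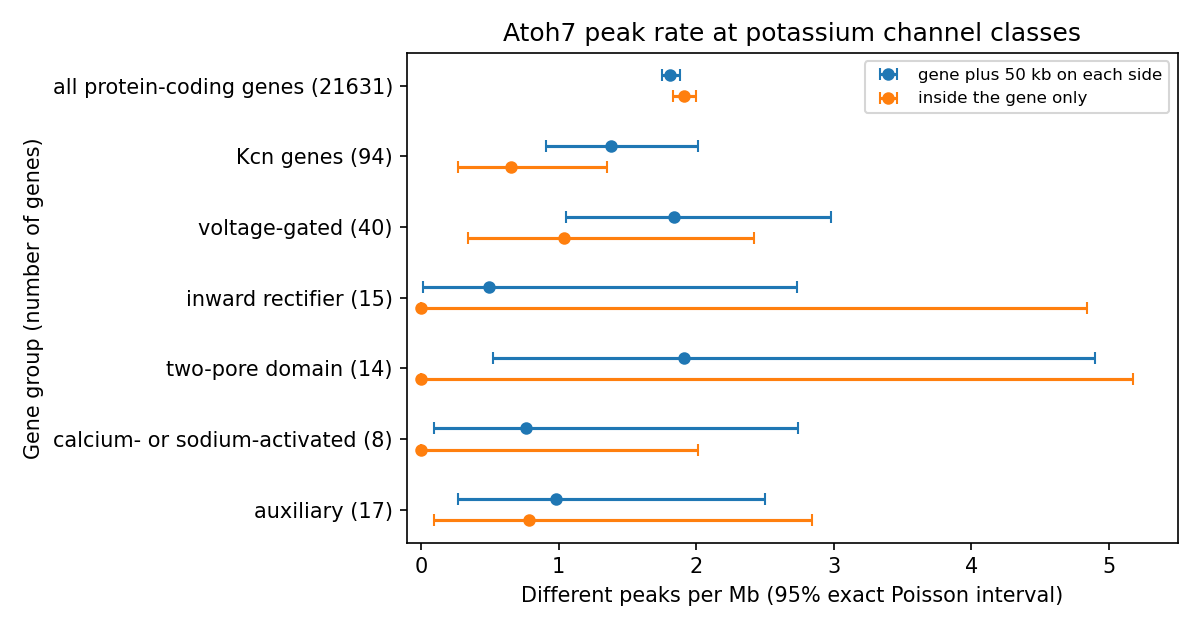
Different peaks per Mb (x axis, points with 95% exact Poisson intervals) for all protein-coding genes, the 94 Kcn genes and their 5 classes (y axis), over the gene plus 50 kb on each side (blue) and inside the gene only (orange). The class intervals overlap each other and, over the windows, each includes the 1.81 of all genes. The orange interval of the 94 genes ends at 1.35, below the 1.91 of all genes, which is not matched for length.

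The peaks near potassium channel genes were close to the list in median width. For the share near an annotated start, their interval included the list's value. Their median width was 407 bp (range 197 to 681 bp), against 381 bp in the list, and no difference was tested. The 11 peaks nearest to a member had a median of 535 bp, with quartiles of 272 and 583 bp. The 16 nearest to another gene had a median of 392 bp, with quartiles of 358 and 470 bp. For the 7 peaks centred inside a member the median was 332 bp, below that of the list. An annotated start of some gene lay within 1 kb of the centre of 8 of 27 peaks (29.6%, 95% Wilson interval 15.9 to 48.5%), against 22% of 3662 peaks on the same chromosomes. With respect to the members themselves, 3 of 27 were centred within 1 kb of an end of a member, 6 elsewhere inside a member and 18 outside. Just inside the 50 kb limit were the peaks of Kcnd1 (45.8 kb) and Kcnh1 (48 kb), and just outside it were a further peak of Kcnh1 (52.4 kb) and that of Kcng1 (52.7 kb). With 100 kb windows, 28 members (29.8%) had a peak, against 34.9% of all protein-coding genes. With the wider 50% of peaks and 50 kb windows, 13 members (13.8%) had one, against 13.2%. Of the 76 members without a peak within 50 kb, 10 had one within 100 kb, and the median distance to the nearest peak was 299.7 kb.

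Genes that work with these channels, from a list written with the earlier results known, held peaks in 6 of 12 cases (50%, 25.4 to 74.6%). The background share of their lengths gives 3.99 genes (33.3%), within that interval. The list runs to 2241 kb (Cntnap2), and the class over 300 kb has no upper limit. Its windows held 1.67 peaks per Mb (0.862 to 2.91), an interval that includes the 1.81 of all protein-coding genes. Dpp6 (2 peaks) and Dpp10 (1 peak), which encode partners of Kcnd channels, held them in the gene body, as did the ankyrin genes Ank2 (3) and Ank3 (1) and the axonal adhesion gene Cntnap2 (1). Amigo1, the gene of a partner of Kcnb channels, had 4 peaks, all outside it. HCN and CNG channel genes had a peak at 2 of 10 (length-class background 2.69), Hcn4 with 3, all inside it, and Hcn2 with 1. Genes of voltage-gated sodium channel pores had peaks at 3 of 10 (length-class background 3.23) and those of voltage-gated calcium channel pores at 7 of 10 (length-class background 3.58). Inside genes, potassium channel genes held 0.656 peaks per Mb (95% exact Poisson interval 0.264 to 1.35). The sodium channel genes held 0.836 (0.0212 to 4.66), the calcium channel genes 3.4 (1.47 to 6.71), the HCN and CNG genes 3.49 (0.719 to 10.2) and the partner genes 1.34 (0.576 to 2.63). Glutamate and GABA receptor genes had peaks at 12 of 47 (length-class background 16) and 1.05 per Mb inside genes (0.557 to 1.79). The differences between these lists and the potassium channel genes were not tested.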

How the data were processed

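The deposited table of peaks gives chromosome, start, end, width and name, in base pairs with starts counted from 1, per the file headers. Per the submitters' processing notes, the authors worked on mm10 with MACS2 2.2.7.1, bedtools, Bowtie2 2.3.5, Picard 2.0.1 and SAMtools, in an order and with settings that are not stated. Names number the peaks up to 7185, and 51.1% of the numbers are in the list. How the others were removed, and any use of replicate 2 or IgG, is not stated. Gene ends, without exons, were taken from RefSeq on GRCm38.p6, the assembly of mm10. Strand and starts came from the RefSeq promoter table, and members missing from it have distances to gene ends only. All 94 promoter sequences of members, for 69 genes, are from that table.

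Each peak centre was tied to every Kcn gene that held it or lay within 50 kb, leaving out 6 peaks that are not on chromosomes 1 to 19 or X, so that 3662 entered. A rate is the number of different peaks over the merged length. Shares have 95% Wilson intervals and rates 95% exact Poisson intervals, for counting error only. The members, classes and lists were chosen with earlier results of these data known. Named genes were the 10 members with the most peaks, those with a peak within 1 kb of a start, the 5 longest without a peak, and Kcna1, Kcnc1, Kcnd2, Kcnh1, Kcnip4, Kcnj10, Kcnma1, Kcnq3 and Kcnv2. Further genes that the rule names are not reported here. Alternatives were windows of 10, 100 and 0 kb, any overlap of 1 bp, nearest gene only and the wider 50% of peaks. The scripts were tested on simulated data. Software was scipy 1.17.1, numpy 2.4.6, matplotlib 3.10.9 and pandas 2.3.3 under Python 3.11.15.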

Additional observations from a re-analysis of the deposited data

How the results depend on the processing

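No paired analysis was possible because the deposited list has no value per library, and for the same reason no replicate could be left out. Of 56 alternative values, 32 were classed as the same, 24 as moved and 0 as reversed. The class of the same was broad, and took in 12 members with a peak with 10 kb windows, against 18. Most values were counts or rates, which cannot fall below 0, so the lack of reversals says little. Counts moved because another number of peaks or length of sequence was counted. The cause of the lower rates inside genes and with 10 kb windows was not tested. Members with a peak numbered 28 with 100 kb windows, 7 for centres inside genes and 8 by nearest gene, and different peaks numbered 13 with 10 kb, 46 with 100 kb, 7 inside genes, 11 by nearest gene and 14 with the wider 50% of peaks. The rate was 0.656 per Mb inside genes, 0.562 by nearest gene and 0.716 with the wider peaks, where all protein-coding genes gave 0.889. With 10 kb windows it was 1.04 (exact Poisson interval 0.553 to 1.78), and the 2.03 of all protein-coding genes lay above that interval. By nearest gene the interval was 0.281 to 1.01, but that setting had to lower the rate of any part of the genes. Peaks nearer to a neighbour were dropped for the members. Over all protein-coding genes every peak kept a nearest gene, so the background stayed at 1.81. The 2 rates therefore cannot be compared under that setting. With 100 kb windows (1.65, 1.2 to 2.19, against 1.71), any overlap and the wider peaks, the interval included the background. These backgrounds were not matched for length. The background share was 34.9% with 100 kb windows (members 29.8%), 12.4% with 10 kb (12.8%), 24.5% by any overlap (19.1%) and 13.2% with the wider peaks (13.8%). By class, voltage-gated genes gave 1.04 per Mb inside genes, 0.919 by nearest gene and 1.03 with the wider peaks. Kcnj genes gave 0 under each of these, calcium- or sodium-activated channel genes also 0 under each, and Kcnk genes 0 inside genes and 0.478 by nearest gene. The correlation with length was 0.18 inside genes, and 7 peaks lay within 5 kb of a member's end. Without Kcnd3 and Kcnh2, left out after seeing the data because they had the most peaks, 16 members held 19 peaks at 0.994 per Mb, a rate that this choice had to lower.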
